A study of Homo sapiens with 4 samples.

Results

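The genes described here encode core proteins of the spliceosome and the RNA-binding proteins that steer it: SR proteins (SRSF genes), hnRNPs (HNRNP genes), Sm and snRNP-specific proteins (SNRP genes), subunits of the SF3A and SF3B complexes (SF3A and SF3B genes) and U2AF (U2AF1 and U2AF2). They were picked by gene symbol, and earlier results of these data were known when this choice was made. In all, 65 of the 25369 rows of the count table carried such a symbol. Of these, 56 had 10 or more counts in at least 2 libraries and form the set analysed, with 11 SR genes, 23 hnRNP genes, 11 SNRP genes, 9 SF3 genes and the 2 U2AF genes. The other 9 rows had at most 9 counts in any library, among them SNRPN (at most 4) and SRSF12 (at most 6). All 56 passed the filter on low counts, and their counts ran from 520 to 100400 per library.

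H226, the established line used, comes from a human squamous carcinoma of the lung and carried a doxycycline-inducible short hairpin RNA. In the shp63 group (n = 2 cultures) the hairpin targeted p63, the basal epithelial transcription factor encoded by TP63; in the shControl group (n = 2 cultures) it was non-targeting. Both groups received 1 µg/mL doxycycline for 6 days, and polyadenylated RNA was sequenced. The labels name 1 construct per group and do not say whether a line was a single clone, so effects of the hairpin and of p63 loss cannot be told apart. The submitters call the samples of a group independent biological replicates.

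Introns are removed by the spliceosome, in which U1 snRNP marks the start of an intron, U2AF and U2 snRNP mark its end and the branch point, and the U4, U5 and U6 snRNPs complete the active complex. Around each of these RNAs except U6 sits a ring of Sm proteins. SR proteins mostly promote the use of the exons they bind, whereas hnRNPs often repress nearby sites, so the balance between them sets alternative splicing. Many of these genes also make unproductive transcripts that limit their own level. MYC is known to raise the expression of several splicing factors. The values below are gene totals, which do not separate productive from unproductive transcripts and do not measure splicing itself.

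The 4 libraries summed to 51926832 to 53924761 counts. TP63 had 30.7 and 30.5 CPM (counts per 1000000 counts, scaled with TMM normalization factors) in shp63, against 136 and 137 CPM in shControl, and MYC had 27.1 and 27.5 CPM against 113 and 115 CPM. Both fell, with log2 fold changes of -2.16 and -2.06. Of 12 squamous and basal markers 11 fell and KRT6A rose, and their summed level was 3301 and 3494 CPM in shp63 against 5562 and 5436 CPM in shControl. Most of this sum was KRT17, which had 2971 and 3152 CPM in shp63 against 3894 and 3902 CPM in shControl, a 1.27-fold fall. Larger falls were those of KRT5 (5.12-fold), DSG3 (4.42-fold), SFN (4.54-fold) and S100A2 (9.52-fold), among others. All 27 listed genes of cell division fell, with sums of 1979 and 2063 CPM in shp63 against 6247 and 6223 CPM in shControl. Of 22 markers of other cell types 12 passed the filter on low counts, and of these 6 rose, 4 fell and 2 did not pass the test, where 36.9% of all tested genes rose and 37.1% fell. The 22 markers had sums of 930 and 925 CPM in shp63 against 500 and 536 CPM in shControl. MSLN and UPK3B (mesothelium), CDH5 (endothelium), COL1A1 (fibroblasts) and CD68 (macrophages) made up nearly all of this sum. COL1A1 fell 1.40-fold and the rest of these rose. Markers of the same cell type did not always move together, as VWF (endothelium) fell 3.57-fold while PECAM1 (endothelium) rose 1.81-fold. WT1 and CALB2 (mesothelium) and COL1A2 (fibroblasts) were near 0, with means of 0, 0.0776 and 0.0887 CPM in shp63. In shControl their means were 0.0643, 0.147 and 0.145 CPM. SOX2 and KRT14 were low in both groups, with means of 0.0395 and 1.43 CPM in shp63 against 0.229 and 4.35 CPM in shControl. The leukocyte genes PTPRC and CD3E were near 0 and DCN was at 0 in every library. In bulk RNA, fewer cells of a kind and less RNA per cell cannot be told apart. The part of cell division, of MYC or of these markers in the changes below was not tested.

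Splicing genes were lower in shp63 in most cases, by modest amounts. Of the 56 genes, 48 fell (85.7%), 2 rose and 6 did not pass the test, where 37.1% of the 14901 genes tested fell and 36.9% rose (edgeR quasi-likelihood test, adjusted p under 0.05 by Benjamini-Hochberg over all tested genes). The median log2 fold change was -0.48, a 1.40-fold lower level, against -0.01 over all tested genes. The middle of the set was narrow, with quartiles at -0.65 and -0.28, and no gene fell by more than 1 on the log2 scale. A fall beyond 1.5-fold was called for 14 of them and a rise beyond it for none (glmTreat), where 10% of all tested genes fell beyond that size. Both shp63 libraries lay below both shControl libraries for 49 of the 56, against 43.6% of tested genes.

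Together the 56 genes took 0.882% and 0.888% of all counts in the shp63 libraries, against 1.30% and 1.32% in the shControl libraries. The share was 0.885% ± 0.00374 in shp63 and 1.31% ± 0.0111 in shControl (SD, n = 2 each), and the groups did not overlap. For any such single value the smallest p that an exact two-sided permutation of 2 against 2 libraries allows is 0.333, so the calls for single genes rest on a spread shared across genes. Replicates were close, and the standard errors of the members' log2 fold changes ran from 0.029 to 0.076. The adjusted p of the 48 falls ran from 5.15e-18 to 0.0259 (edgeR), where 11033 of the 14901 tested genes were called. The size of the change had little relation to abundance, with a Spearman rho of -0.06 between log2 fold change and mean log2 CPM over the 56 genes, a description over genes that share the same 4 libraries.

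**Figure D1:**
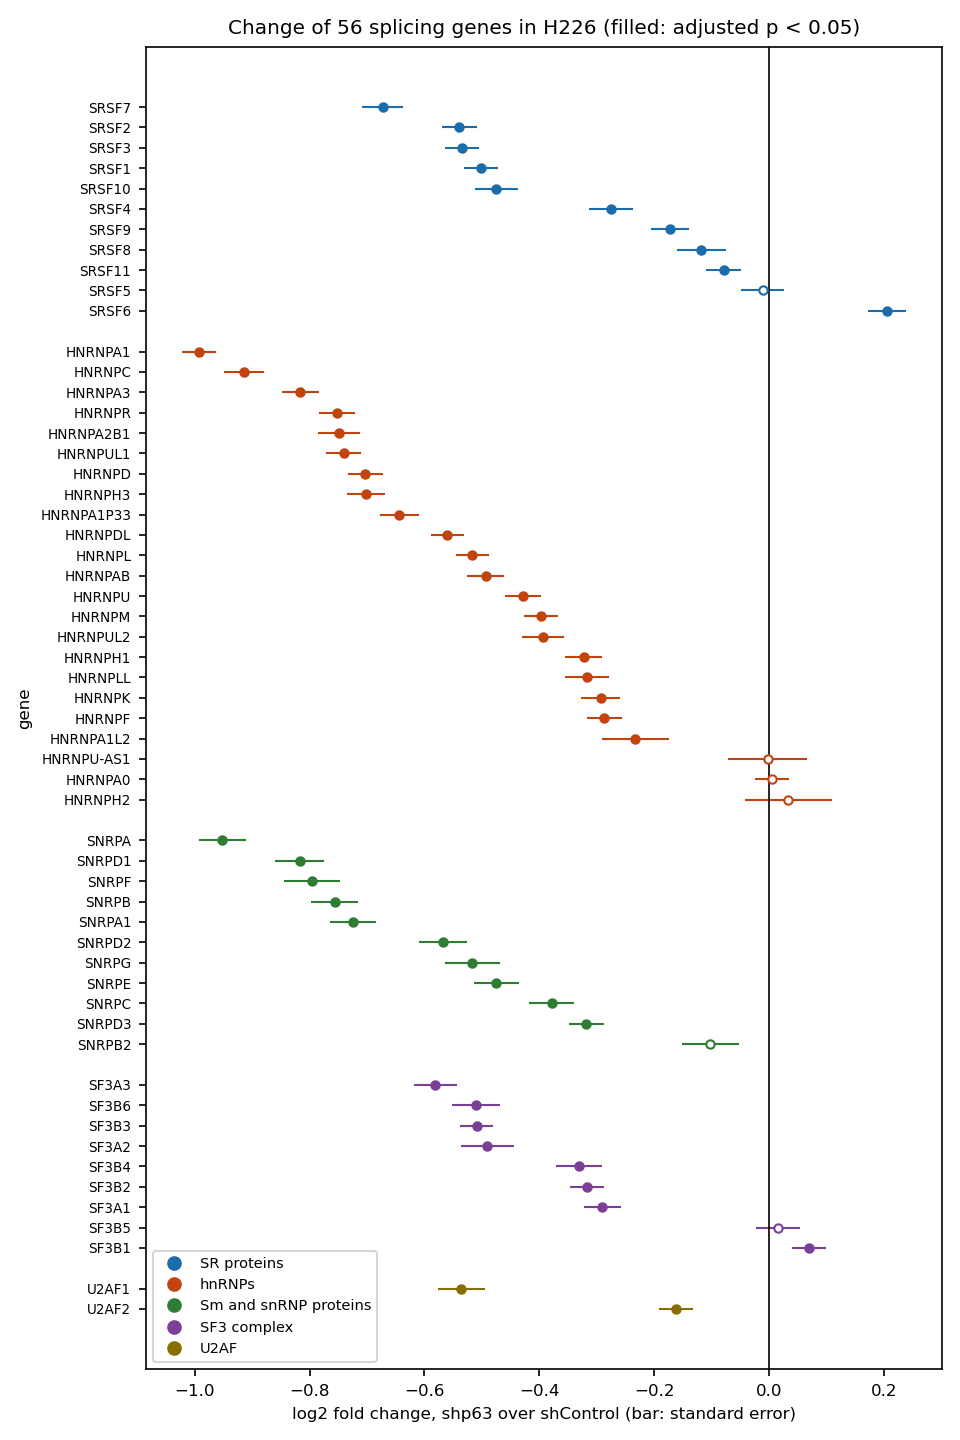
Log2 fold change, shp63 over shControl, of the 56 splicing genes (x axis; bars are standard errors of the edgeR fit), grouped and coloured by class. Filled points passed the test and open points did not. Points lie left of 0 for 51 genes, and SRSF6 and SF3B1 are the filled points to its right (with library totals as the only scaling SF3B1 was at -0.02).

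**Figure D2:**
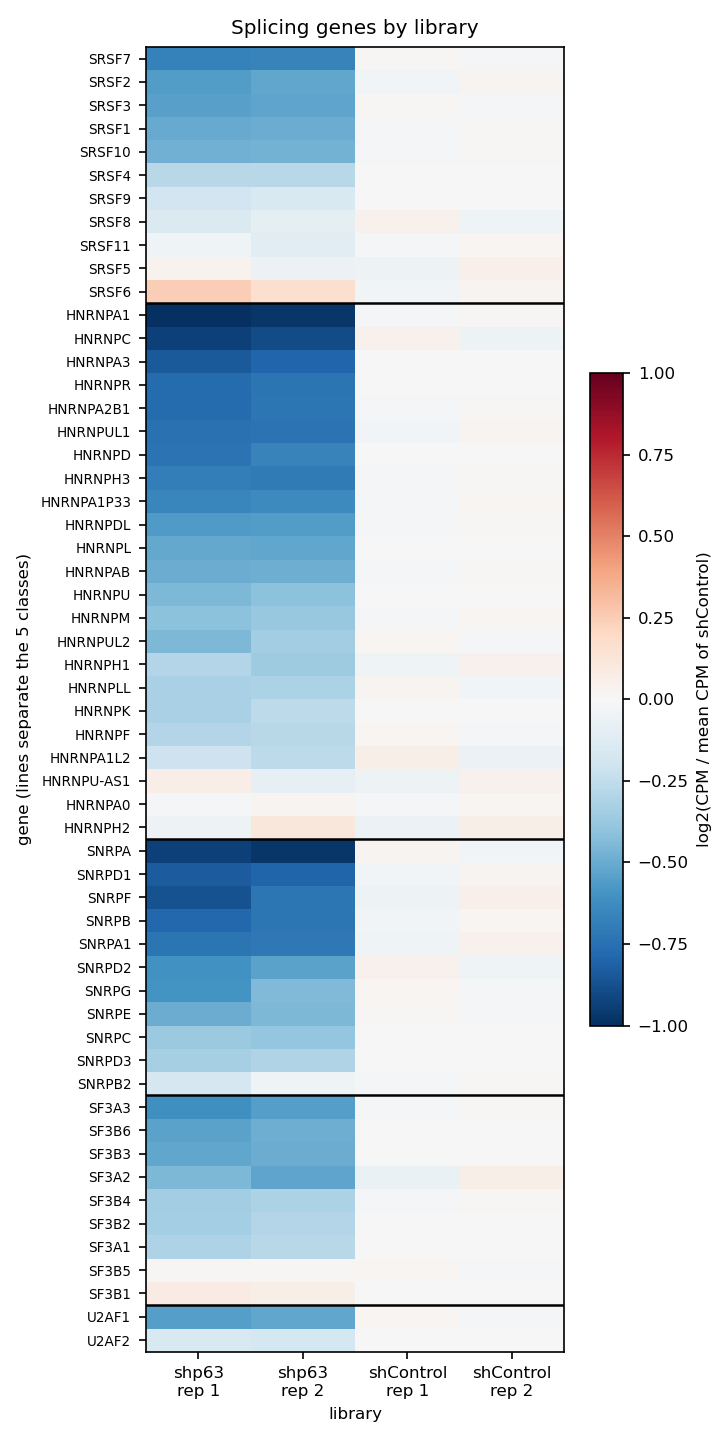
Level of each of the 56 splicing genes in each library, as log2 of its CPM over the mean CPM of shControl (colour), with shp63 libraries on the left and lines between the 5 classes. Both shp63 columns are blue for most genes, and replicates of a group look alike. HNRNPA1, HNRNPC and SNRPA are darkest, and SRSF6 is red in both shp63 libraries.

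SR proteins carry an RNA-recognition domain and a tail rich in arginine and serine. Of 11 genes, 9 fell, 1 (SRSF6) rose and 1 (SRSF5) did not pass the test, with a median log2 fold change of -0.28 and a range from -0.67 to 0.21. Among all tested genes 37.1% fell, 36.9% rose and 10% fell beyond 1.5-fold. SRSF7, which also takes part in mRNA export, had 76.8 and 77.4 CPM in shp63, against 124 and 122 CPM in shControl. It fell 1.59-fold (log2 fold change -0.67, SE 0.036, adjusted p = 1.57e-13, edgeR), the only SR gene called beyond 1.5-fold.

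SRSF2, an activator of exons, had 191 and 196 CPM in shp63, against 277 and 287 CPM in shControl, a 1.45-fold fall. SRSF3, the smallest SR protein, had 233 and 235 CPM in shp63, against 342 and 336 CPM in shControl, a 1.45-fold fall. SRSF1, a founding member of the family and a known oncoprotein, had 287 and 288 CPM in shp63, against 404 and 411 CPM in shControl, a 1.42-fold fall. For each of these 3 genes the groups lay far apart beside the gap between replicates, with adjusted p from 2.73e-13 to 9.33e-13 (edgeR). SRSF10, which can act as a repressor, fell 1.39-fold, SRSF4 1.21-fold and SRSF9 1.13-fold. SRSF8 and SRSF11 fell 1.09-fold and 1.06-fold, and DESeq2 called neither (largest adjusted p over the alternatives 0.144 for SRSF8 and 0.254 for SRSF11). SRSF8 also lost its call without replicate 1 of either group, and SRSF11 without replicate 2 of either group.

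SRSF6, a regulator of epidermal and other epithelial splicing, went the other way. It had 369 and 349 CPM in shp63, against 305 and 317 CPM in shControl. Its libraries did not overlap between groups, and it rose 1.15-fold (log2 fold change 0.21, SE 0.033, adjusted p = 8.88e-06, edgeR). SRSF5 had 161 and 151 CPM in shp63 and 152 and 163 CPM in shControl, so that its groups overlapped (adjusted p = 0.792, edgeR). Among SR-related genes outside the set the kinase gene CLK1, whose product phosphorylates SR proteins, rose too, whereas CLK2 fell, as given with the other lists.

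Of 23 hnRNP genes 20 fell, none rose and 3 did not pass the test (median log2 fold change -0.49), and 8 fell beyond 1.5-fold. Over all tested genes 37.1% fell, 36.9% rose and 10% fell beyond that size. HNRNPA1, encoding an antagonist of SR proteins in splice site choice, is at chr12:54673977-54680872, plus strand, in GRCh37. It had 125 and 128 CPM in shp63, against 250 and 253 CPM in shControl. This 1.99-fold fall was the largest of any single row of the set (log2 fold change -0.99, SE 0.030, adjusted p = 5.15e-18, edgeR). HNRNPC, which binds uridine runs and keeps U2AF2 off cryptic sites, had 342 and 352 CPM in shp63, against 675 and 633 CPM in shControl, a 1.88-fold fall.

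HNRNPA3 had 344 and 356 CPM in shp63, against 615 and 617 CPM in shControl, a 1.76-fold fall. HNRNPR had 109 and 112 CPM in shp63, against 185 and 186 CPM in shControl, a 1.68-fold fall. HNRNPA2B1, the most abundant gene of the set by counts, had 1071 and 1105 CPM in shp63, against 1811 and 1845 CPM in shControl. It fell 1.68-fold (log2 fold change -0.75, SE 0.036, adjusted p = 3.26e-14, edgeR). HNRNPUL1, HNRNPD, which binds AU-rich elements in mRNA, and HNRNPH3 fell 1.67-fold, 1.63-fold and 1.63-fold.

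Falls were smaller for HNRNPDL (1.47-fold), HNRNPL (1.43-fold), which binds CA repeats, HNRNPAB (1.41-fold), the chromatin-associated HNRNPU (1.35-fold), HNRNPM (1.32-fold) and HNRNPUL2 (1.31-fold). The G-run binding HNRNPH1 and HNRNPF fell 1.25-fold and 1.22-fold, HNRNPLL 1.25-fold, and HNRNPK, a binder of C-rich RNA, fell 1.23-fold, with 675 and 705 CPM in shp63 against 846 and 845 CPM in shControl. HNRNPA0 did not pass the test and was at 233 and 240 CPM in shp63 and 233 and 238 CPM in shControl (adjusted p = 0.88, edgeR). HNRNPA1, HNRNPA2B1 and HNRNPA3, of the same subfamily, all fell. HNRNPH2 had 9.996 and 11.1 CPM in shp63 and 9.90 and 10.8 CPM in shControl, and it did not pass the test (adjusted p = 0.7, edgeR).

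Rows named for copies of these genes, or for their antisense strand, were counted too. The pseudogene row HNRNPA1P33 fell 1.56-fold and HNRNPA1L2, an intronless copy, fell 1.18-fold. HNRNPU-AS1, antisense to HNRNPU, had 13.3 and 12.03 CPM in shp63 and 12.3 and 13.1 CPM in shControl (adjusted p = 0.976, edgeR). The library kit was stranded, but no source used here gives the strand setting of the counting, and reads of HNRNPU and its antisense partner may not be separated. Reads shared between copies are uncertain in the same way. Without these 3 rows and without SNRPA1 and SNRPG, most of whose sequence also occurs elsewhere in the genome, 44 of the remaining 51 genes fell and 2 rose.

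Of the 11 SNRP genes 10 fell and 1 (SNRPB2) did not pass the test, with a median log2 fold change of -0.57, and 5 fell beyond 1.5-fold. The shares of all tested genes were 37.1% for falls and 10% for falls beyond that size. SNRPA, a U1 snRNP protein that binds the U1 RNA itself, is at chr19:41256542-41271294, plus strand, in GRCh37. It had 31.6 and 30.9 CPM in shp63, against 61.5 and 59.4 CPM in shControl, a 1.93-fold fall (log2 fold change -0.95, SE 0.041, adjusted p = 2.94e-15, edgeR). SNRPC, the other U1 protein gene in the set, fell 1.30-fold, with 71.7 and 70.7 CPM in shp63 against 92.1 and 93.0 CPM in shControl. The U1 gene SNRNP70, outside the set, was at 119 and 108 CPM in shp63 and 121 and 121 CPM in shControl and did not pass the test (adjusted p = 0.055, edgeR).

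The 7 genes of the Sm ring (SNRPB, SNRPD1, SNRPD2, SNRPD3, SNRPE, SNRPF and SNRPG) all fell, by 1.25-fold to 1.76-fold. Their summed level was 404 and 422 CPM in shp63, against 604 and 605 CPM in shControl, or 31.6% lower. SNRPD1 had 39.4 and 40.2 CPM in shp63, against 68.9 and 71.4 CPM in shControl, a 1.76-fold fall. SNRPF had 24.5 and 27.1 CPM in shp63, against 43.1 and 46.4 CPM in shControl, a 1.74-fold fall. SNRPB had 55.2 and 57.6 CPM in shp63, against 93.7 and 96.8 CPM in shControl, a 1.69-fold fall. SNRPD3, which pairs with SNRPB in the ring, fell least, with 132 and 135 CPM in shp63 against 166 and 167 CPM in shControl. SNRPD2, SNRPG and SNRPE lay between, with falls of 1.48-fold, 1.43-fold and 1.39-fold.

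The U2 snRNP proteins encoded by SNRPA1 and SNRPB2 bind each other on the U2 RNA. SNRPA1 had 68.9 and 69.7 CPM in shp63, against 111 and 118 CPM in shControl, a 1.65-fold fall. SNRPB2 had 26.1 and 28.5 CPM in shp63, against 29.04 and 29.5 CPM in shControl. Its groups did not overlap, yet the difference did not pass the test (log2 fold change -0.10, adjusted p = 0.0676, edgeR). Without shp63 replicate 2 or without shControl replicate 1 it was called lower.

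SF3A and SF3B join U2 snRNP at the branch point. Of the 9 subunit genes 7 fell, 1 (SF3B1) rose and 1 (SF3B5) did not pass the test, and none moved beyond 1.5-fold. For comparison, 37.1% of all tested genes fell, 36.9% rose and 10% fell beyond that size. SF3A3 had 76.4 and 79.7 CPM in shp63, against 116 and 118 CPM in shControl, a log2 fold change of -0.58. SF3B6, whose product lies near the branch point, had 48.9 and 50.4 CPM in shp63, against 70.5 and 70.9 CPM in shControl, a 1.42-fold fall. SF3B3 had 153 and 156 CPM in shp63, against 220 and 221 CPM in shControl, a 1.42-fold fall. These 3 showed a clear gap between groups, with adjusted p from 4.68e-13 to 3.4e-10 (edgeR).

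SF3A2 had 41.8 and 39.6 CPM in shp63, against 54.7 and 59.6 CPM in shControl, a 1.40-fold fall. SF3B4 had 61.7 and 62.8 CPM in shp63, against 77.7 and 78.9 CPM in shControl, a 1.26-fold fall. SF3B2 had 244 and 251 CPM in shp63, against 310 and 308 CPM in shControl, a 1.25-fold fall. None of these groups overlapped. SF3A1 fell 1.22-fold, with 115 and 117 CPM in shp63 against 142 and 142 CPM in shControl.

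SF3B1, the large scaffold of SF3B and the subunit most often mutated in blood cancers, had 368 and 362 CPM in shp63, against 348 and 347 CPM in shControl. The difference of 1.05-fold passed the test narrowly (log2 fold change 0.07, SE 0.030, adjusted p = 0.0373, edgeR). The call was lost without any of 3 single libraries (shp63 replicate 1 and each shControl replicate, adjusted p from 0.0787 to 0.178) and with the replicate block (adjusted p = 0.0802, edgeR), and with library totals as the only scaling the sign turned (log2 fold change -0.02). SF3B5, a small subunit, had 87.6 and 87.6 CPM in shp63 and 87.9 and 85.4 CPM in shControl (adjusted p = 0.728, edgeR).

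U2AF recognises the end of the intron as a heterodimer. U2AF1, the subunit that reads the terminal AG, had 55.2 and 56.3 CPM in shp63, against 81.9 and 79.6 CPM in shControl, a 1.45-fold fall (log2 fold change -0.54, SE 0.041, adjusted p = 8.23e-11, edgeR). U2AF2, the subunit that binds the pyrimidine tract, had 147 and 145 CPM in shp63, against 163 and 164 CPM in shControl, a 1.12-fold fall (log2 fold change -0.16, SE 0.030, adjusted p = 4.27e-05, edgeR). Neither gene's groups overlapped.

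Partners within a class therefore changed by unequal amounts, and ratios of counts taken within each library show this without any scaling. The pairs were picked after the values had been seen. U2AF1 over U2AF2 was 0.374 and 0.389 in shp63, against 0.501 and 0.486 in shControl. SNRPD1 over SNRPD3 was 0.299 and 0.298 in shp63, against 0.416 and 0.428 in shControl. SF3B3 over SF3B1 was 0.417 and 0.431 in shp63, against 0.631 and 0.635 in shControl.

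Each of these 3 ratios was lower in both shp63 libraries, by 1.30-fold, 1.41-fold and 1.49-fold. The ratio of SRSF7 to SRSF6 was 0.208 and 0.222 in shp63, against 0.406 and 0.384 in shControl. HNRNPA1 over HNRNPA0 was 0.535 and 0.532 in shp63, against 1.07 and 1.06 in shControl, a 2.00-fold lower ratio. In every pair plotted the gene with the lower log2 fold change was put first, so the shared direction follows from the choice. The groups did not overlap for any of the 10 ratios plotted, which the choice favours too. The exact two-sided permutation p was 0.333 for each, the smallest that 2 against 2 can give, and is no test for pairs so picked.

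**Figure D3:**
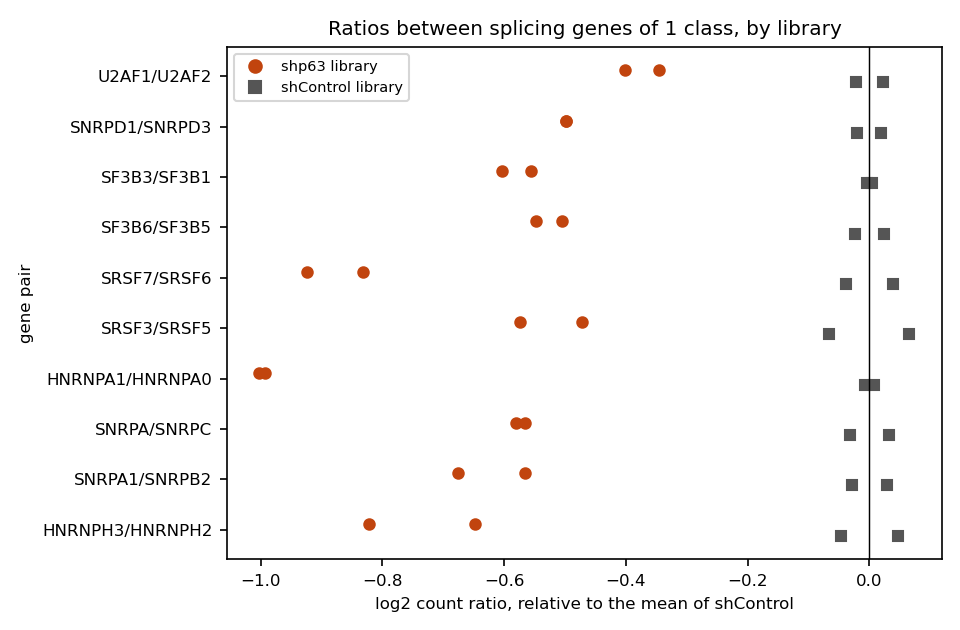
Count ratio of 10 pairs of splicing genes in each library, as log2 relative to the mean of the shControl libraries (x axis), with circles for shp63 and squares for shControl. Every circle lies left of every square of its pair, and HNRNPA1 over HNRNPA0 is the furthest shifted, at about 1 on the log2 scale. The pairs were picked after the values had been seen, with the gene of lower log2 fold change first, so this direction follows from the choice.

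RefSeq promoter entries (GRCh38.p14, 250 bases before to 50 after the start of the gene) were found for 50 of the 56 genes. The 6 without an entry were HNRNPA1, HNRNPA1P33, HNRNPU-AS1, SF3B3, SNRPD1 and SRSF2. The counts below therefore leave out HNRNPA1, which had the largest fall of the set, and SNRPD1, which had the largest of the Sm ring. The E-box CACGTG, the sequence bound by MYC with MAX and by related factors, is the same on both strands, and 8 of the 50 promoters (16.0%) held it, against 7.26% of all 35116 promoters and 9.76% of the 10665 of tested genes. The CCAAT box, sought as CCAAT on both strands, stood in 20 of the 50 (40.0%), against 34.6% of all promoters and 36.4% of those of tested genes. These are matches of letters and not sites shown to be bound. Only the first entry of each member was used, and whether its start is the one used in H226 was not tested. Of the 43 promoters of genes that fell, 6 held an E-box (HNRNPA3, HNRNPD, HNRNPDL, HNRNPH3, HNRNPM and HNRNPUL1), and so did 2 of the other 7 (HNRNPH2 and SF3B1). The median number of CG pairs was 29 in the members' promoters, 26 in those of tested genes and 14 over all promoters.

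The promoters of 4 genes with an E-box are shown. HNRNPA3 and HNRNPH3 were taken from the 6 such genes that fell, and HNRNPH2 and SF3B1 are the 2 that did not fall. Not shown are HNRNPUL1, HNRNPD, HNRNPDL and HNRNPM, which fell 1.67-fold, 1.63-fold, 1.47-fold and 1.32-fold. The E-box and CCAAT matches are in capitals. HNRNPA3 is at chr2:177212544-177212843 on the plus strand, HNRNPH3 at chr10:68331443-68331742 on the plus strand, HNRNPH2 at chrX:101407972-101408271 on the plus strand and SF3B1 at chr2:197434979-197435278 on the minus strand (RefSeq, GRCh38.p14), each written 5′ to 3′ along the gene.
HNRNPA3: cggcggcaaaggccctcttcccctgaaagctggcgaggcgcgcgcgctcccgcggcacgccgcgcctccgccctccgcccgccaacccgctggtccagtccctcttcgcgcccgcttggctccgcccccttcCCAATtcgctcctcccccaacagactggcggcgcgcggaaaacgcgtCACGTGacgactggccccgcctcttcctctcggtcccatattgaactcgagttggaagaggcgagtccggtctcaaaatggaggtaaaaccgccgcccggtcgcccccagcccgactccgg
HNRNPH3: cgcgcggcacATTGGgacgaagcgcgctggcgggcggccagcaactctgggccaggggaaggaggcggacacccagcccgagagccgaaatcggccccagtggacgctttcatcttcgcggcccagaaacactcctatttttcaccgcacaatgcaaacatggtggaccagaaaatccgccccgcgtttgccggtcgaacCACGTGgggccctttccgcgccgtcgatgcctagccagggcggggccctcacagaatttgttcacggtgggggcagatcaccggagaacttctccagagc
HNRNPH2: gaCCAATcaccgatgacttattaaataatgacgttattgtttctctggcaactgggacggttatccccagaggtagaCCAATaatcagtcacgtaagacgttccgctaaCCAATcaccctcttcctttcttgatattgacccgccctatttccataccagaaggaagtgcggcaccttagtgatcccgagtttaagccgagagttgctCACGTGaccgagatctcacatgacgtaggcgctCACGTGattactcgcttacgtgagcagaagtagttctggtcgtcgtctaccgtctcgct
SF3B1: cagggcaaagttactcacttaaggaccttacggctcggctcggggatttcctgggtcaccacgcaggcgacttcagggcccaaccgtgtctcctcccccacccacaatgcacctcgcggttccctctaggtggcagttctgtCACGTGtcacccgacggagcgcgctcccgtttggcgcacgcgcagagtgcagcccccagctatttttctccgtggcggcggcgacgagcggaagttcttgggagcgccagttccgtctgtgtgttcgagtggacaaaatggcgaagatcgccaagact
The E-box begins 71 bases before the start in HNRNPA3, which fell 1.76-fold, and 50 bases before it in HNRNPH3, which fell 1.63-fold. In HNRNPH2, which did not pass the test, matches begin 42 and 9 bases before the start, and in SF3B1 the match begins 108 bases before it.

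Genes of the splicing pathway outside the symbol rule were also lower in most cases. Of 202 tested genes 155 fell, 16 rose and 31 did not pass the test, with a median log2 fold change of -0.29. Of all tested genes 37.1% fell and 36.9% rose. A change beyond 1.5-fold was called for 22 of the 202, of which 21 fell, a share close to the 10% of all tested genes that fell beyond that size.

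Of 37 snRNP and tri-snRNP genes 31 fell and 2 rose. SNRNP40, a U5 protein gene, had 27.8 and 29.5 CPM in shp63, against 45.7 and 46.7 CPM in shControl, and SNRNP48 of the minor spliceosome fell 1.57-fold. The U1-associated LUC7L rose 1.16-fold, with 34.0 and 32.6 CPM in shp63 against 27.8 and 29.5 CPM in shControl. SNRNP27 was the other rise, at 25.2 and 25.5 CPM in shp63 against 22.9 and 24.0 CPM in shControl, and DESeq2 did not call it (adjusted p = 0.169). Of 12 Lsm genes, whose products cap the U6 RNA or act in decay and histone pre-mRNA processing, 9 fell and 1 rose. LSM5 and LSM2 both fell 1.76-fold, and LSM1, part of the cytoplasmic decay ring, had 17.0 and 19.4 CPM in shp63 against 16.5 and 16.0 CPM in shControl (adjusted p = 0.0288 by edgeR and 0.115 by DESeq2).

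Of 30 genes of the Prp19 complex and the catalytic steps 23 fell and none rose. PPIL1, a prolyl isomerase of the active spliceosome, fell 1.72-fold, and PRPF19, the ubiquitin ligase of that complex, fell 1.57-fold, with 126 and 129 CPM in shp63 against 200 and 200 CPM in shControl. Of 18 tested genes for snRNP assembly 14 fell and none rose, with the lowest median of these lists (-0.42). The 2 listed genes left out, SMN1 and SMN2, had 0 counts in every library, and the reason was not tested. GEMIN2, which holds Sm proteins for the SMN complex, had 5.21 and 6.04 CPM in shp63, against 11.8 and 11.6 CPM in shControl, a 2.08-fold fall. GEMIN4 fell 1.81-fold.

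Of 28 genes of the exon junction complex, mRNA export and nonsense-mediated decay 20 fell and 2 rose. The export helicase gene DDX39A had 27.1 and 27.9 CPM in shp63, against 65.3 and 67.3 CPM in shControl. It fell 2.41-fold (log2 fold change -1.27, SE 0.042, adjusted p = 2.56e-17, edgeR), more than any member of the set. THOC3, of the THO export complex, fell 1.95-fold. SAP18, which joins the exon junction partner RNPS1, had 166 and 167 CPM in shp63, against 116 and 116 CPM in shControl, a 1.43-fold rise. SMG5, a decay factor gene, rose 1.07-fold, and the call was lost without shp63 replicate 1 (adjusted p = 0.458) or shControl replicate 1 (adjusted p = 0.0703, both edgeR), and with library totals.

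Of 22 SR protein kinase and SR-related genes 17 fell and 2 rose. SRPK2, a cytoplasmic SR protein kinase gene, fell 1.62-fold, and TRA2B, an SR-like activator gene, fell 1.57-fold. CLK1, a nuclear SR protein kinase gene, had 149 and 143 CPM in shp63, against 103 and 113 CPM in shControl, a 1.35-fold rise (log2 fold change 0.43, SE 0.039, adjusted p = 2.99e-09, edgeR). Other kinase genes of the list did not rise with it. CLK2 fell 1.25-fold and PRPF4B 1.12-fold, and CLK3 and CLK4 did not pass the test. SCAF1 rose 1.13-fold. Of 55 other splicing regulators 41 fell and 9 rose. RBM38, an RNA-binding protein gene, had 22.3 and 21.9 CPM in shp63, against 36.3 and 37.3 CPM in shControl, a 1.66-fold fall. The cold-inducible CIRBP rose 1.30-fold and TIA1, which promotes weak splice sites bound by U1, rose 1.29-fold, with 117 and 111 CPM in shp63 against 88.3 and 88.2 CPM in shControl.

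**Figure D4:**
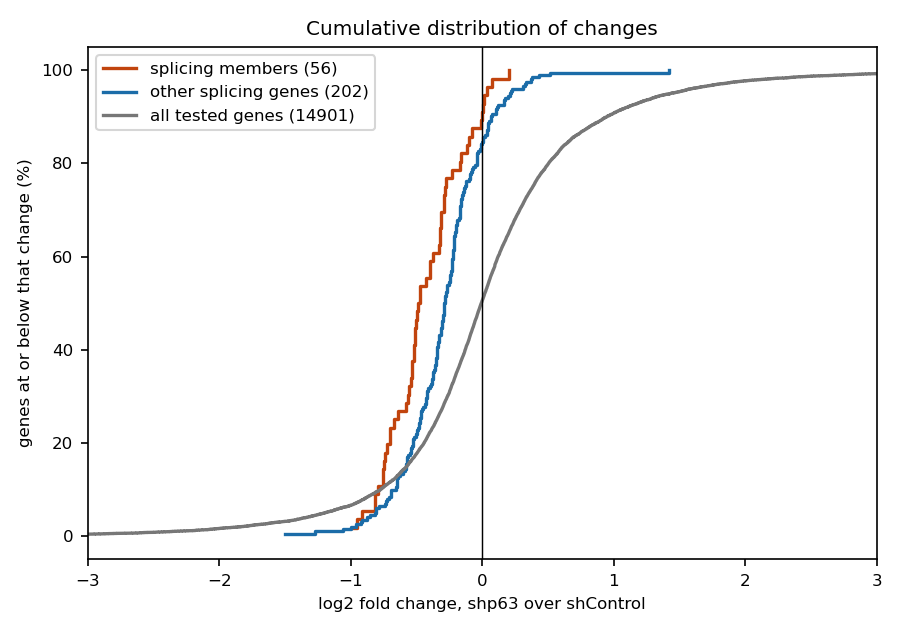
Cumulative share of genes (y axis, percent) at or below each log2 fold change, shp63 over shControl (x axis), for the 56 splicing genes, the 202 other splicing genes and all 14901 tested genes. Near the middle the curves of the splicing sets lie left of the curve of all genes, with medians at -0.48, -0.29 and -0.01, and the curves cross in the lower tail, where none of the 56 genes lies past -1. The axis leaves out changes beyond 3 on the log2 scale.

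**Figure D5:**
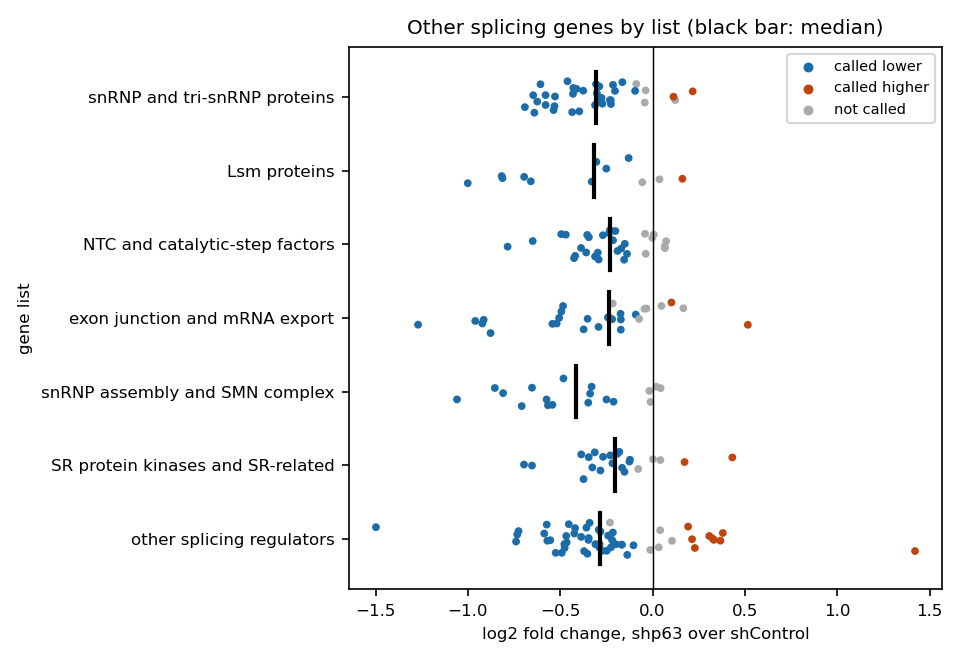
Log2 fold change, shp63 over shControl (x axis), of each tested gene in 7 lists of other splicing genes, coloured by call, with a black bar at each list's median. Medians lie left of 0 in all 7 lists, from -0.20 for SR protein kinases and SR-related genes to -0.42 for snRNP assembly. The far point on the left is CELF2 and the far point on the right is CELF6, both at under 5 CPM.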

How the data were processed

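Per the submitters' processing notes, TopHat2 2.0.13 and HTSeq 0.6.1 were used with GRCh37, and per the series' design text the first aligned the reads and the second made gene-level counts. The deposited values are whole-number counts per gene symbol, not normalized, and each of the 4 columns was matched to a sample by the name in its labels. The annotation and strand setting are not given in the sources used here.

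Counts were tested with edgeR 4.0.16 (R 4.3.3): filterByExpr (minimum count 10, minimum total 15) kept 14901 of 25369 genes, TMM factors were used, and a robust quasi-likelihood model of group was fitted to the 4 libraries, with Benjamini-Hochberg adjustment over all tested genes and calls under 0.05. Larger changes were tested against 1.5-fold (glmTreat). Library totals ran from 51926832 to 53924761 counts, and each member had 520 counts or more in every library. The 2 samples of a group differed by more than sampling noise (chi-square per degree of freedom 3.13 in shp63 and 2.92 in shControl). The fit was tested on simulated data.

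Member positions are from GENCODE v44lift37 on GRCh37. Windows of 50 bases of each member's canonical transcript were sought in that genome by exact match. Alternatives were other scalings and filters, DESeq2 1.42.0, limma-voom (limma 3.58.1), the replicate block, each library left out, and the set without copies. The members and lists were chosen with earlier results of these data known. Values in every library were given for the 4 largest rises and falls per class at 5 CPM or more, all called SF3 and U2AF genes, TP63 and MYC, and list genes were named for the 2 largest rises and falls. Other list genes named, and per-library values of other genes, were chosen after they were seen. CPM were computed from the deposited counts. 1 gene that this rule names is not reported here.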

Additional observations from a re-analysis of the deposited data

How the results depend on the processing

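Of the 48 splicing genes that fell, 46 were called lower under each of the 13 alternatives, and the exceptions were SRSF8 and SRSF11, lost with DESeq2 and with some libraries left out. The count of genes that fell ran from 46 (DESeq2) to 51 (library totals) over the alternatives, and that of genes changed beyond 1.5-fold ran from 12 to 17. The count of genes that rose was 2 and went to 1 with library totals, to 1 with the replicate block, and to between 1 and 2 with each library left out. In each case the lost gene was SF3B1. With library totals its log2 fold change was -0.0177 (not called) and that of HNRNPA0 was -0.0829 (adjusted p = 0.0125, edgeR), and SRSF5 and SNRPB2 were called lower. SNRPB2 was also called with no low-count filter, without shp63 replicate 2 and without shControl replicate 1. The median of all genes was -0.10 with library totals and -0.01 in the reported fit.

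With the replicate block 10858 genes were called, against 11033 without it. Same-numbered libraries deviated in opposite directions (r = -0.292 across genes), and the labels tie the numbers to no batch. The crossed pairing, added after seeing the data, called 11387 genes, with 49 splicing genes lower and 2 higher.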

Other observations

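The row of the pseudogene HNRNPA1P33, annotated as a processed pseudogene at chr10:47133338-47133898, minus strand, in GRCh37, held 4718 and 4583 counts in shp63, against 7765 and 7767 counts in shControl. HNRNPA1 itself held 6482 and 6418 counts in shp63, against 13845 and 13593 counts in shControl. The ratio of HNRNPA1 to HNRNPA1P33 was 1.37 and 1.40 in shp63, against 1.78 and 1.75 in shControl (exact two-sided permutation p = 0.333, the smallest possible). Summed over HNRNPA1, HNRNPA1L2 and HNRNPA1P33 the level was 235 ± 2.44 CPM in shp63 and 414 ± 4.23 CPM in shControl (SD, n = 2 each), 1.76-fold lower, beside the 1.99-fold fall of HNRNPA1 alone. Of the 50-base windows of the HNRNPA1 transcript 40.1% occur elsewhere in the genome, and which reads the counting gave to which copy was not tested.

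Over the 55 members with a GRCh37 position the median share of such windows was 2.10%. It was above 20% for 9 members, HNRNPA1, HNRNPA1L2, HNRNPA1P33, HNRNPA3, HNRNPC, HNRNPK, HNRNPL, SNRPA1 and SNRPG. All 9 fell, the median being -0.64 on the log2 scale, and of the other 46 members 39 fell, with a median of -0.45. Of all tested genes 37.1% fell. HNRNPA1, HNRNPA1L2 and HNRNPA1P33 may share reads and are not separate cases, and a link between such windows and the falls was not tested. The share of windows found elsewhere was highest for SNRPA1, at 59.8%. The length of the read is not given in the sources used here.

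Per kilobase of canonical transcript HNRNPA2B1 stood highest of these 55 members in both groups, at 300 CPM per kilobase in shp63 and 504 in shControl, followed by HNRNPK at 239 in shp63 and 293 in shControl. The pseudogene row HNRNPA1P33 ranked 3 in both groups, at 163 in shp63 and 254 in shControl. HNRNPA1 itself stood lower, at 33.7 in shp63 and 67.1 in shControl, and how reads were divided between these rows was not tested. HNRNPH2 stood lowest, at 4.60 in shp63 and 4.50 in shControl. SRSF6 ranked 15 in shp63, at 82.4, and 30 in shControl, at 71.5, a change of rank that also depends on the falls of other members. These levels assume that the canonical transcript is the one expressed.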
